A study of Mus musculus with 6 samples.

Results

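The regions described here are peaks of ubiquitylated histone H2B (H2Bub) called in myotubes that overlap a peak called in myoblasts, and are called shared MT peaks. They were taken by coordinates alone: an interval of the myotube list on chromosomes 1 to 19 or X that overlaps an interval of the myoblast list by at least 1 bp. This gave 14055 of 25743 myotube peaks (54.6%), lying on 11958 of 191324 myoblast peaks (6.25%), called host peaks. The cells were the mouse line C2C12, whose myoblasts fuse into multinucleated myotubes once serum is reduced. Myoblasts (MB, 3 libraries) were growing cells taken at about 40% confluency in medium with 10% fetal bovine serum. Myotubes (MT, 3 libraries) came from confluent cultures kept for 96 h in 2% horse serum, renewed at day 2. In both groups chromatin was cut with micrococcal nuclease (MNase) and precipitated with the same H2Bub antibody clone. Nothing in the labels ties the libraries of a group to separate cultures, and the p-values therefore cover only the library-to-library spread, which may be technical. They also give each library its own antibody lot number, in sample order, so that a lot cannot be told apart from its sample.

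H2Bub is histone H2B carrying a single ubiquitin, attached mainly by the RNF20/RNF40 ligase with its conjugating enzymes and removed by deubiquitinases. It is placed as RNA polymerase II travels along a gene, so it marks the bodies of transcribed genes and is tied to elongation and to methylation of histone H3. A stretch of the mark in chromatin immunoprecipitation therefore usually follows a transcribed gene, and the signal of a mark precipitated from MNase-cut chromatin is a series of nucleosome-sized maxima.

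Both peak lists were made from the libraries read here. That a shared MT peak holds reads in either group, and the direction of its difference between groups, are therefore partly set by the choice and are given as a description. Reads of the 6 libraries on chromosomes 1 to 19 and X numbered 8759266 to 15891204. Density outside all peaks was the reference in each library, so a value of 1 is the level of sequence without a peak. The length of that sequence ran to the last read of each chromosome, less peak bases. Sequence to which no read can map was thus counted in it. Coordinates are mm9. No annotation of that build was used, so regions are given by position and not by gene. In cultures read in bulk, fewer nuclei with the mark and less mark per nucleus cannot be told apart. Densities are relative within each library, so less mark and a weaker precipitation in the myotube libraries cannot be told apart either. Falls and losses below are of read density.

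Most shared MT peaks were short stretches within a wider myoblast peak. Of the 14055, 10686 lay wholly inside 1 host (76.0%), 3008 crossed an edge of a host (21.4%) and 361 covered a whole host (2.57%). The description as peaks lying inside myoblast peaks thus held for 76.0% of them. Their median width was 289 bp, close to the 264 bp of MT peaks without an MB peak (MT-only peaks). Host peaks had a median width of 872.5 bp, against 358 bp for MB peaks without an MT peak (MB-only peaks). Once every MT peak was taken off, 70.3% of host bases were left, here called the host remainder. A single MT peak lay on 10171 hosts, 2 lay on 1246 and 3 or more on 541, up to 12 on 1 host. Neighbouring shared peaks on the same host had centres a median of 672.5 bp apart (quartiles 476 and 984 bp, n = 2648).

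Within their hosts, shared MT peaks stood anywhere but at the very ends. Among 9325 that lay inside a host of at least 600 bp, divided into 10 equal lengths, each of the 6 middle lengths held 12.1% to 12.7% of the peak centres. The outermost lengths held 3.47% and 3.24%. A peak that must lie inside cannot have its centre at the edge, so the low ends follow from the count itself. The lengths next to them, the 2nd and the 9th, held 9.47% and 10.0%. The counts were not set against random placement, so a preference for one part of the interior was not tested.

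Myoblast libraries had a far higher H2Bub read density at these positions than myotube libraries did. Read density at shared MT peaks, relative to sequence outside peaks, was 19.9, 23.9 and 16.9 in MB replicates 1, 2 and 3. In MT replicates 1, 2 and 3 it was 6.03, 2.95 and 5.93. The groups did not overlap, and MT replicate 2 stood just above the level of MT-only peaks in myoblast libraries (2.53 to 2.85). Scaled by all reads instead, the density was 5.19 ± 0.611 reads per 1000000 reads (RPM) per kb in myoblasts and 1.78 ± 0.604 in myotubes (SD, n = 3).

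The fall in read density was larger in the rest of the same host peaks. In the host remainder the density was 17.8, 21.0 and 14.9 in MB replicates 1, 2 and 3, a little under that at the shared peak itself. It was 3.04, 1.56 and 2.84 in MT replicates 1, 2 and 3. All 3 myotube libraries were thus above sequence outside peaks in the remainder, MT replicate 2 the least. By total reads the remainder went from 4.59 ± 0.533 to 0.889 ± 0.276 RPM per kb (SD, n = 3), a log2 difference of the means of -2.37 against -1.54 at the shared peak.

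The share of the myoblast excess that was still present puts the pair on one scale. Excess is the density less the 1 of sequence outside peaks, and the mean of the MB libraries is the whole. At shared MT peaks MT replicates 1, 2 and 3 had 26.1%, 10.1% and 25.6% of it. In the host remainder they had 12.0%, 3.32% and 10.9%. MB-only peaks gave 12.2%, 6.47% and 11.7%, so hosts outside their MT peaks kept about what MB-only peaks kept in MT replicates 1 and 3 and less in MT replicate 2. Without chromosomes 10 and 15, the values were 9.54% to 25.5% at shared peaks and 2.92% to 11.8% in the remainder, both lowest in MT replicate 2.

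**Figure D1:**
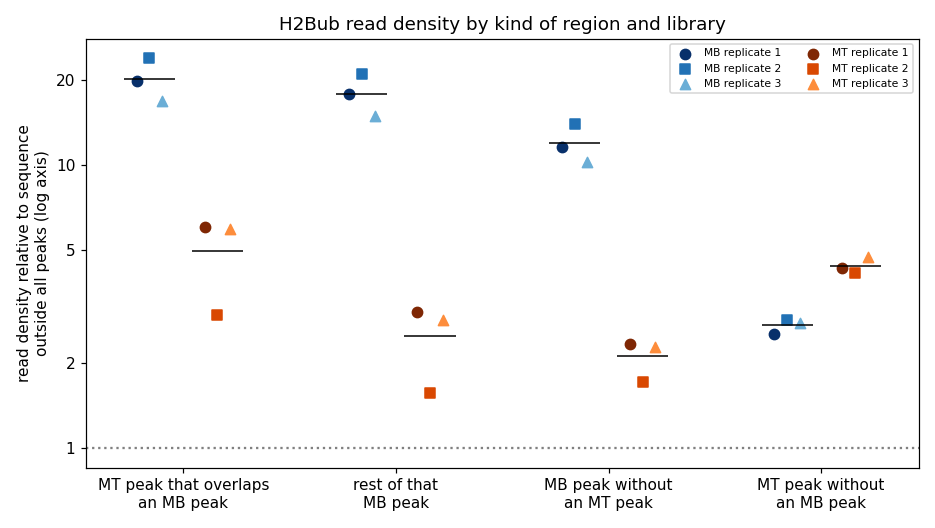
Read density in each library, relative to sequence outside all peaks (log axis; the dotted line is 1), for shared MT peaks, the remainder of their host MB peaks, MB-only peaks and MT-only peaks. Points are single libraries and bars are group means. MB libraries lie above MT libraries in the first 3 kinds of region and below them in MT-only peaks, and MT replicate 2 is the lowest myotube point in each kind.

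Shared MT peaks and MT-only peaks were alike in width but not in their ranking among myotube libraries. The density at shared peaks over that at MT-only peaks was 1.39 and 1.25 in MT replicates 1 and 3, and 0.710 in MT replicate 2. In myoblasts the ratio was 7.89, 8.39 and 6.10. MT replicate 2 therefore ordered the 2 kinds of MT peak the other way from both other myotube libraries, and no direction in myotubes is taken from their mean. The host remainder against MB-only peaks behaved likewise, at 1.30, 0.914 and 1.24 in MT replicates 1, 2 and 3, against 1.45 to 1.53 in myoblasts. The low density of MT replicate 2 was mainly on myoblast peaks. At MB-only peaks it had 1.71, against 2.33 and 2.29 in MT replicates 1 and 3, and at MT-only peaks 4.15, against 4.33 and 4.73. The cause of these orders was not tested.

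Density at shared peaks depended on how they met the myoblast peak. Those inside a host had 23.1 ± 4.11 times the density outside peaks in myoblasts, those crossing an edge 11.8 ± 1.76 and those covering a host 9.35 ± 1.21 (SD, n = 3). The same 3 kinds had 5.08 ± 1.88, 4.64 ± 1.34 and 4.56 ± 1.47 in myotubes. Within libraries, peaks inside a host were the densest in MT replicates 1 (6.25, against 5.36 and 5.36) and 3 (6.08, against 5.46 and 5.46). In MT replicate 2 those crossing an edge were the densest (3.10, against 2.91 inside and 2.86 covering). The larger difference was in myoblasts. A peak that reaches outside the host takes in sequence that the myoblast list left out, so the order in myoblasts follows in part from the rule. At the limit of the rule, the 61 MT peaks that overlapped an MB peak by 25 bp or less had means of 5.84 in myoblasts and 4.51 in myotubes. The 62 MT peaks that missed one by 25 bp or less had 5.19 and 4.68. MT peaks more than 10000 bp from any MB peak (8108) had 1.83 and 4.39.

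Peak by peak, the fall was the rule but not without exception. The density per peak had a median of 4.37 RPM per kb in myoblasts, with 2.72 to 6.72 between the quartiles. In myotubes the median was 1.73, with 1.47 to 2.05 between the quartiles. The spread among shared peaks was thus much narrower in myotubes than in myoblasts. Each of these intervals had to be on the myotube list, which can cut off low myotube values. The narrower spread may therefore be partly set by the choice. The log2 ratio of the group means, with 0.1 RPM per kb added, had a median of -1.28 (quartiles -1.83 and -0.66). Host remainders of at least 200 bp had a median of -2.06 and MB-only peaks -1.74. The mean was higher in myotubes at 897 shared peaks (6.38%) and at 7 of 9188 remainders (0.0762%). Remainders of any width gave 153 of 11595 (1.32%). All pieces, meaning every MT peak and every MB peak less MT peaks, gave 12214 of 216704 (5.64%). These shares too are partly set by the lists.

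**Figure D2:**
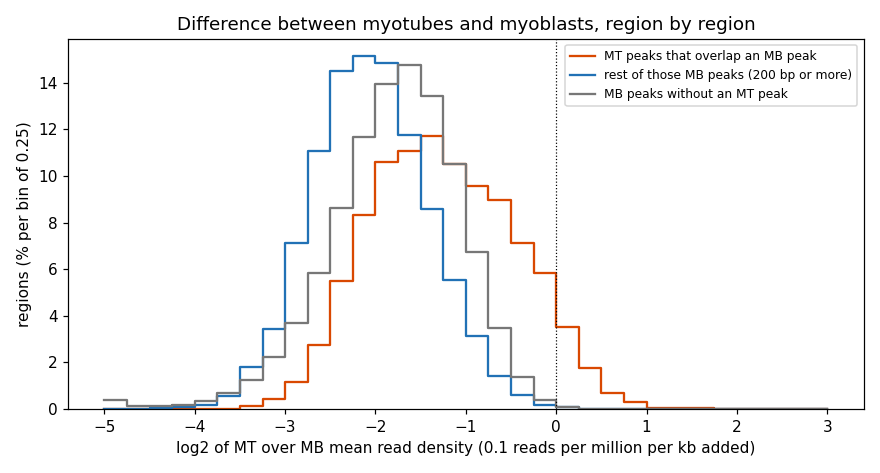
Share of regions (%, bins of 0.25) by the log2 ratio of the mean myotube over the mean myoblast read density, with 0.1 RPM per kb added, for shared MT peaks, host remainders of at least 200 bp and MB-only peaks. The curve of shared MT peaks lies furthest to the right, with a median of -1.28, and 6.38% of it is above 0.

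Counts by library give the same picture at low depth. A shared MT peak held a median of 11, 15 and 18 reads in MB replicates 1, 2 and 3, and 5, 3 and 8 in MT replicates 1, 2 and 3. MT replicate 2 had no read at 748 of the 14055 (5.32%). Of all positions and strands within shared peaks, reads filled at most 3.64%, in MB replicate 3. All 3 myotube libraries were below all 3 myoblast libraries at 8860 shared peaks (63.0%), where 73.8% of all pieces of either list did so. All 3 were above at 31 (0.221%), where 2.84% of all pieces did so. Since the lists chose these pieces, nothing is read from the difference between those shares.

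A limma voom fit over all pieces of both lists had enough reads for 6701 of the 14055 shared peaks. Of these, 6375 were lower in myotubes and 0 were higher at an adjusted p under 0.05, with a median log2 fold change of -1.87 against -2.09 over all pieces tested. In the whole fit 99.0% of 68290 pieces were lower and 0.0176% higher. The floor could be passed on the MB libraries alone, so the share of lower calls was partly fixed by it. With no floor 8665 of the 14055 were lower and 6 higher, against 74.6% and 2.68% of all pieces. Leaving out MT replicate 2 gave 6867 lower (74.6%) and 11 higher (0.119%) of 9209 tested, against 87.7% and 0.0556% of all pieces in that fit. With reads outside peaks as the scale and without that library, 8972 of 9896 were lower and 0 higher, against 97.3% and 0.0118% of all pieces. By place, 5872 of 5999 tested peaks inside a host were lower (97.9%), 464 of 598 crossing an edge (77.6%) and 39 of 104 covering a host (37.5%). Of 6838 host remainders, 6819 were lower and 0 higher. For 5652 shared peaks with a tested remainder, the median log2 fold change was -1.93 at the peak and -2.62 in the remainder. The peak had lost less than its own remainder in 5259 of them (93.0%), by a median log2 difference of 0.66 (quartiles 0.35 and 0.97). MT reads helped to choose the peak, so a smaller loss there is built into the choice.

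The position of a shared peak along its host was chosen by the myotube list, and myoblast reads had no part in that step. Myoblast reads at that position are therefore the one measure here that the choice along the host did not use, although the host and the requirement to overlap it came from the myoblast list. Pooled over hosts, these positions were slightly denser in myoblasts than the remainder of the same hosts. Pooled over 11301 shared peaks with a remainder of at least 200 bp and at least 30 myoblast reads in peak plus remainder, the log2 ratio of peak to remainder was 0.14, 0.18 and 0.18 in MB replicates 1, 2 and 3. The mean was 0.17 ± 0.02 (SD, n = 3), or 1.12-fold, and all 3 libraries were above 0. An exact sign-flip permutation test over the 3 libraries gave p = 0.25 (two-sided), the smallest p that 3 libraries allow, so the design could not reach 0.05. The pooled ratio sums reads and bases over hosts of unlike width and density. Relative to sequence outside peaks, and with no limit on remainder or reads, hosts with 1 MT peak differed little. They had 16.3, 19.8 and 14.2 at the peak and 16.4, 19.5 and 13.9 in the remainder in MB replicates 1, 2 and 3. By width, peaks were sparser than remainders in each MB library on hosts under 400 bp and denser on wider hosts. To hold the distance from an edge fixed, each shared peak was also set against its mirror image about the centre of the host. Where the mirror image touched no MT peak (4736 shared peaks), the log2 ratio was 0.28, 0.30 and 0.29 in the 3 MB libraries, or 1.22-fold. Against the remainder, the mirror images themselves had -0.10, -0.09 and -0.09 (4548 windows, 0.938-fold).

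Single shared peaks rarely showed this with any certainty. The log2 ratio was above 0 in 8378 of 11301 (74.1%), with a median of 0.25. For a window of the median MT peak width at the centre of each myoblast peak, the share was 55.2% of 68628 and the median 0.05. For the central windows of host peaks alone, it was 57.5% of 8905 and the median 0.07. In a limma fit over both sets with a prior variance that depends on the reads, 165 shared peaks were denser than their remainder (1.46%) and 10 sparser (0.0885%) at an adjusted p under 0.05. Of the central windows, 0.0379% were denser and 0.0991% sparser, and of those of host peaks alone 0.168% and 0.314%. With a single prior variance for all rows, limma called 0 denser and 0 sparser, while 1572 were denser and 162 sparser at an unadjusted p under 0.05. Of the central windows, 5.15% and 3.21% were so in the same fit. Without any one of the MB libraries, limma also called 0 in both directions, with 1634 to 2268 denser and 150 to 200 sparser, of 10518 to 11009 tested, at an unadjusted p under 0.05. Without MB replicates 1, 2 and 3 respectively, central windows were denser in 5.07%, 3.69% and 4.85% and sparser in 3.6%, 2.96% and 3.45% of cases. The prior variance was chosen with both sets of calls known, so the 165 are not firm calls. When mirror images took the place of central windows, limma called 1034 shared peaks denser and 51 sparser. Of the mirror images 2.77% were then denser and 4.0% sparser, so calls also arose at positions that no MT peak had chosen.

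In myotubes the contrast between the shared peak and its remainder was steeper, in the direction that the choice favours. The pooled log2 ratio was 0.92, 0.94 and 1.00 in MT replicates 1, 2 and 3. MT replicate 2, low in density at both peak and remainder, lay between the others in this ratio. The groups differed by 0.79 in log2, and this value is not tested because MT reads chose the peak.

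Averaged around their centres, shared MT peaks formed a single narrow maximum on a raised plateau. For these profiles, unlike the densities above, read positions were shifted inward (plus strand by 75 bp, minus strand by 29 bp). The density within 50 bp of the centre over that between 500 and 1000 bp from it was 1.41, 1.45 and 1.43 in MB replicates 1, 2 and 3. MT-only peaks gave 1.38, 1.43 and 1.45 in the same libraries and MB-only peaks 1.42, 1.43 and 1.43. A myoblast maximum of this relative height was thus common to all 3 kinds of peak, whether or not the myoblast list held them. The plateau was not: between 500 and 1000 bp from the centre, myoblast density was 14.3 ± 2.37 around shared peaks, 2.00 ± 0.0963 around MT-only peaks and 7.68 ± 1.16 around MB-only peaks (SD, n = 3).

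In myotubes the centre of shared peaks stood higher over its flanks, in the direction that the choice favours. The ratio at shared peaks was 1.93, 2.10 and 2.01 in MT replicates 1, 2 and 3. MT-only peaks had 2.75, 2.99 and 2.92, and MB-only peaks 1.29, 1.31 and 1.29. The 3 libraries of each set lay close together, MT replicate 2 included, and the sets did not overlap. Shared and MT-only peaks were centred by the myotube list and MB-only peaks by the myoblast list. The order of the sets in myotubes is therefore partly built into the choice of centres. The flanks of shared peaks in myotubes were at 3.16, 1.50 and 3.00, and those of MT-only peaks at 1.65, 1.48 and 1.70. MT replicates 1 and 3 thus kept a plateau around shared peaks that MT-only peaks lacked, and MT replicate 2 hardly did. The maximum at shared peaks was about 200 bp wide at 50% of its height in each myotube library, and 250 to 300 bp in myoblast libraries. Widths were read in bins of 50 bp.

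**Figure D3:**
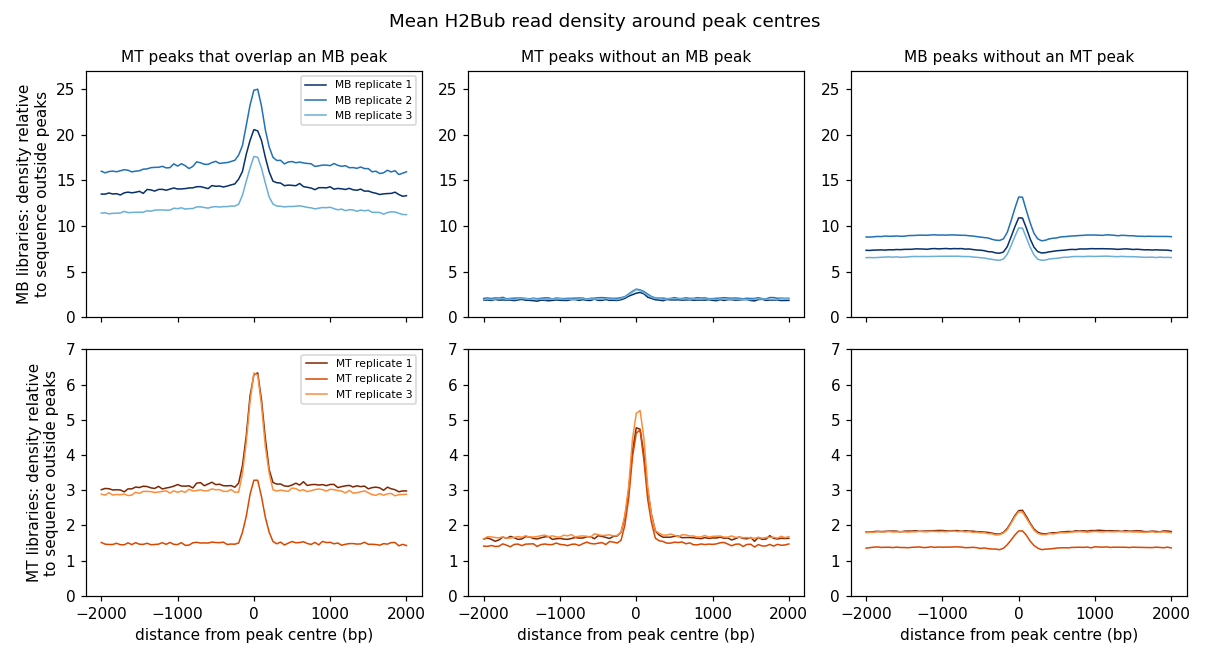
Mean read density in bins of 50 bp (y axis, relative to sequence outside all peaks) by distance from the peak centre (x axis, bp) for shared MT peaks, MT-only peaks and MB-only peaks; the upper row shows MB libraries and the lower row MT libraries, on different scales. Shared peaks sit on a plateau in myoblasts (14.3 on average between 500 and 1000 bp) that is much lower in myotubes. Each MT library keeps a central maximum, at positions that the myotube list chose. Read positions were shifted inward (plus strand by 75 bp, minus strand by 29 bp).

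Wide myoblast peaks were far more often hosts. The share with an MT peak was 1.57% of MB peaks under 200 bp and 2.49% of those from 200 bp to under 400 bp. It rose through 5.63%, 14.8% and 32.7% to 58.1% of those of 3200 bp or more. Per kb of all MB peaks in a class, hosts or not, the number of MT peaks was 0.0968 under 200 bp, 0.0866 in the next class and 0.334 at 3200 bp or more, so the widest peaks held more MT peaks for their length as well. Shared peaks on wide hosts were also denser in myoblasts. Their density went from 8.11, 9.56 and 7.68 in MB replicates 1, 2 and 3 on hosts under 200 bp to 28.9, 34.3 and 23.8 on hosts of 3200 bp or more.

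The myotube libraries did not follow this gradient alike. Between the narrowest and the widest hosts, shared peaks went from 5.22 to 6.92 in MT replicate 1 and from 5.37 to 6.57 in MT replicate 3. In MT replicate 2 they went from 3.34 to 2.63. The number of MT peaks on a host gave the same contrast. From hosts with 1 MT peak to hosts with 6 or more, density at shared peaks went from 5.53 to 8.01 in MT replicate 1 and from 5.55 to 7.55 in MT replicate 3, and from 3.16 to 2.30 in MT replicate 2. Whether the lower density of this library on myoblast peaks has a part in that was not tested.

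**Figure D4:**
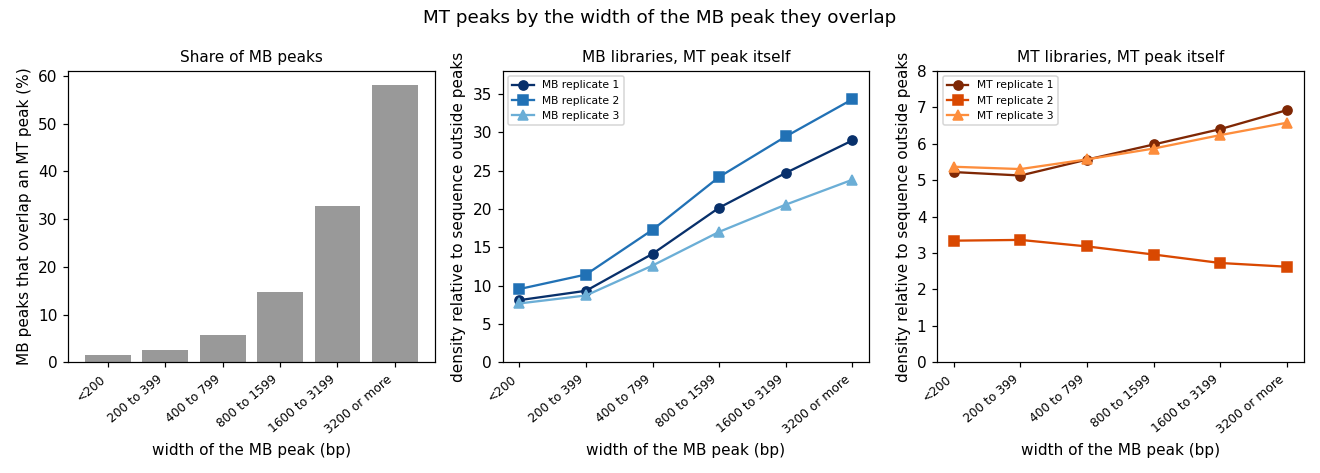
Left, the share of myoblast peaks that overlap an MT peak (%), by width of the myoblast peak (bp). Middle and right, read density at the shared MT peak (relative to sequence outside all peaks) in each MB and MT library by the same width classes. A shared peak wider than its host also takes in sequence outside the host. The share climbs from 1.57% to 58.1%, density climbs in all 3 MB libraries, and in myotubes it climbs in MT replicates 1 and 3 and falls in MT replicate 2.

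In myoblasts, host remainders were denser than MB-only peaks of like width from 200 bp upward, and sparser below. Among MB peaks from 800 bp to under 1600 bp, host remainders had 15.9, 18.8 and 13.3 in MB replicates 1, 2 and 3, and MB-only peaks 13.2, 15.8 and 11.4. Each MB library put the hosts higher, here and in each other class from 200 bp upward. Under 200 bp, remainders had 9.83, 11.7 and 10.1 and MB-only peaks 11.7, 14.1 and 10.6, lower in each MB library. In myotubes, remainders of hosts from 800 bp to under 1600 bp had 2.95, 1.56 and 2.76 and MB-only peaks 2.43, 1.70 and 2.36, with MT replicate 2 again in the other order. Hosts lay mostly within long stretches of the myoblast mark. When MB peaks were joined across gaps of up to 3 kb, stretches of at least 10 kb held 91.3% of shared MT peaks and 76.9% of MB-only peaks.

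Chromosomes 10 and 15 held 20.6% of shared MT peaks, 27.1% of MT-only peaks and 10.6% of MB peaks. The surplus over MB peaks was thus not particular to the shared peaks. On them 11.8% of MB peaks were hosts, and on the other chromosomes 5.60%. Chromosome 15 had the highest share of hosts (13.0%), then chromosome 10 (10.6%), and chromosome 7 the lowest (2.34%). Both chromosomes also had more myotube reads where no peak was called. Relative to all chromosomes, myotube density outside peaks was 1.34 ± 0.00934 on chromosome 15 and 1.23 ± 0.0112 on chromosome 10, and 0.695 ± 0.0184 on chromosome 7 (SD, n = 3). The same density in myoblasts was 1.26 ± 0.0193, 1.12 ± 0.0213 and 0.738 ± 0.0313. Chromosomes may differ in sequence to which no read can map, which counts as length here. Its part in these values was not tested.

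Over the 20 chromosomes the share of hosts went with the myotube density outside peaks (Pearson's r = 0.858, Spearman's rho = 0.716, and r = 0.758 without chromosomes 10 and 15). These are points from the same libraries and from 1 peak list, so they are a description. On the scale of all chromosomes, shared peaks on chromosome 15 had 6.23, 3.24 and 6.23 in MT replicates 1, 2 and 3, next to 6.03, 2.95 and 5.93 for all shared peaks. Those on chromosome 7 had 5.76, 2.63 and 5.45. Divided by the density outside peaks of their own chromosome, they had 4.68, 2.40 and 4.66 on chromosome 15 and 8.31, 3.88 and 7.64 on chromosome 7, an order that the division itself favours. The part of the density outside peaks in the share of hosts was not tested.

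**Figure D5:**
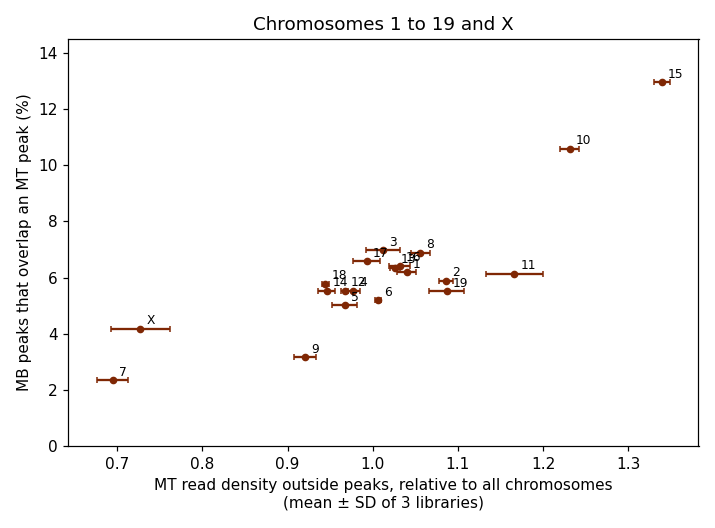
Share of myoblast peaks that overlap an MT peak (%, y axis) by the myotube read density outside peaks relative to all chromosomes (x axis; mean ± SD of 3 libraries), 1 point for each of chromosomes 1 to 19 and X. Chromosomes 15 (13.0%) and 10 (10.6%) lie at the upper right, and chromosomes 7 and X have the lowest densities outside peaks.

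Single shared peaks are named among the 3153 with at least 100 reads over the 6 libraries, at most 1 per host and per 100 kb. Myoblast reads count toward the 100, so this floor favours peaks that are dense in myoblasts or wide. The place and direction of the named peaks are thus partly set by it. The 5 with the highest myotube density were all inside a host and all lower in myotubes, both of which the floor favours. The first was at chromosome 2, 49312265 to 49313055, on a host with 3 MT peaks. It had 92, 129 and 132 reads in MB replicates 1, 2 and 3 and 54, 8 and 74 in MT replicates 1, 2 and 3. MT replicate 2 was far below the other myotube libraries, and the groups did not overlap (log2 fold change -1.69, SE 0.42, limma voom adjusted p = 0.000718). Without MT replicate 2 the value was -0.83 (limma voom adjusted p = 0.00158).

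The peak at chromosome 4, 131750938 to 131751192, is a single MT peak on a host of 988 bp. It had 27, 44 and 50 reads in the MB libraries and 13, 5 and 17 in the MT libraries (log2 fold change -1.71, limma voom adjusted p = 5.81e-05). In RPM per kb, myotube density was 5.84, 2.13 and 4.63 at the peak and 2.49, 0.59 and 1.51 in the remainder. Each myotube library was thus denser at the peak than in the rest of the host.

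A peak on chromosome 15, from 25561141 to 25561502, differed by -1.33 on the log2 scale. Those at chromosome 14, 105569395 to 105569667, and chromosome 6, 87797929 to 87798146, had -1.85 and -1.86. The peak on chromosome 15 lay on a host of 5689 bp with 6 MT peaks. On chromosome 6, MT replicate 2 had 8 reads, next to 10 and 7 in MT replicates 1 and 3, so that peak did not have the deficit of MT replicate 2 seen at the others.

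Shared peaks that differed least between groups did not lie inside a host. At chromosome 18, 47502837 to 47503685, an MT peak of 848 bp covered a host of 192 bp. It had 8, 10 and 28 reads in the MB libraries and 24, 6 and 28 in the MT libraries. The groups overlapped, and the log2 fold change was 0.38 (SE 0.40, limma voom adjusted p = 0.348). At chromosome 10, 39167709 to 39168336, a peak that crossed an edge had 11, 14 and 22 reads against 15, 11 and 31 (log2 fold change 0.34, SE 0.30, limma voom adjusted p = 0.272). On chromosome 1, the peaks from 36530985 to 36531940 and from 17059943 to 17060809 had 0.10 and 0.03. The peak from 166365621 to 166366472 on chromosome X had 0.05. None of the 5 was called. Without MT replicate 2, those on chromosomes 18 and X were called higher, with 0.89 and 0.90 (limma voom adjusted p = 0.0161 and 0.0129). With reads outside peaks as the scale and without that library, they had 0.44 and 0.44 and were not called (limma voom adjusted p = 0.244 and 0.241).

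Shared peaks that fell most were all inside a host and had 0 reads in MT replicate 2. The lowest was at chromosome 6, 17593607 to 17593928, at the left end of a host of 5979 bp with 6 MT peaks. It had 33, 46 and 41 reads in the MB libraries and 3, 0 and 8 in the MT libraries (log2 fold change -3.72, SE 0.72, limma voom adjusted p = 5.89e-05). In myotubes its density was 1.07, 0 and 1.72 RPM per kb, and that of its remainder 1.39, 0.41 and 1.16. Only MT replicate 3 was thus denser at the listed peak than beside it. Next came chromosome 7, 35162880 to 35163191 (log2 fold change -3.64), and chromosome 17, 32405288 to 32405543 (-3.61). A pair on chromosome 5, from 34682435 to 34682693 and from 148250190 to 148250477, had -3.59 and -3.56. Each of these values rests in part on what is added to the 0 of MT replicate 2. Without that library the 5 had -2.70, -2.64, -2.80, -2.69 and -2.48 in the order named, and all were still called lower.

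By the myoblast ratio of peak to remainder, the largest value was at chromosome 17, 65942743 to 65943021. In RPM per kb it had 12.8, 12.3 and 5.89 in MB replicates 1, 2 and 3, over a remainder of 2.95, 2.90 and 3.25. The peak was higher in each library (log2 ratio 1.65, SE 0.30, limma adjusted p = 0.0292). In myotubes the same peak had 4.93, 1.56 and 2.24 and the remainder 1.39, 0 and 0.42. Then followed chromosome 19, 41585734 to 41586065 (1.56), and chromosome 8, 23973867 to 23974193 (1.51). The last were chromosome 11, 77416475 to 77416816 (1.49), and chromosome 17, 21083749 to 21084014 (1.48). These 5 are among the calls that were lost with a single prior variance and without any one MB library.

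At the other end, the shared peak at chromosome 15, 8327467 to 8327876, was sparser than its remainder in myoblasts, with 5.27, 7.22 and 4.31 against 7.37, 10.6 and 7.58. Its log2 ratio was -0.61 (SE 0.24, limma adjusted p = 0.291), which did not pass the threshold. In myotubes it had 3.07, 1.06 and 2.20 against 1.49, 0 and 2.93, denser in MT replicates 1 and 2 and sparser in MT replicate 3. Next came peaks on chromosome 17, 10409662 to 10410430 (log2 ratio -0.57), and chromosome 15, 36708598 to 36709041 (-0.56). Smaller values belonged to chromosome 10, 39103916 to 39104727 (-0.53), and chromosome 9, 108421018 to 108421611 (-0.45). None of them passed.

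The hosts with the most MT peaks were broad. The host at chromosome 9, 49571122 to 49578716 (7.59 kb), carried 12, which took up 3.89 kb of it. In RPM per kb, its MT peaks had 5.76, 5.88 and 3.53 in the MB libraries and 2.76, 0.696 and 2.74 in the MT libraries. Its remainder had 4.10, 4.50 and 3.24, and 1.91, 0.263 and 1.12. Each of the 6 libraries was denser in the MT peaks than between them, and MT replicate 2 was the lowest in both.

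The host at chromosome 17, 65949881 to 65957535 (7.65 kb), carried 10 MT peaks, close to the peak with the largest myoblast ratio. They had 14.1, 13.3 and 9.81 in the MB libraries and 3.45, 0.662 and 3.15 in the MT libraries. The host at chromosome 7, 74501789 to 74508087 (6.30 kb), also carried 10, with 6.98, 7.19 and 4.86 against 2.63, 0.723 and 2.38. The chromosome 17 host had the most myoblast signal of the 3, and its myotube level in MT replicates 1 and 3 was also the highest. In MT replicate 2 all 3 hosts had 0.662 to 0.723 at their MT peaks.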

How the data were processed

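H2Bub chromatin was read in 3 MB and 3 MT libraries of C2C12 cells, grouped by the sample titles. The authors deposited, for each library, the chromosome, position and strand of mapped reads, and for each group 1 list of peak starts and ends with no score, on mm9 per the submitters' processing notes. Not given in the sources used here are the aligner, read length, filters, peak caller, control and pooling. No library lists a position and strand again (0 repeated lines), which can compress the densest regions. The files do not say whether positions count from 0 or 1, so coordinates are accurate to about 1 bp.

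Members and lists were chosen with earlier results of these data known. The genome was divided into every MT peak and every MB peak less MT peaks, and each piece got its number of read positions (chromosomes 1 to 19 and X). Their total was the library size. Pieces entered with a floor of 10 reads (at the median library size) in 3 libraries and 15 reads in all, in limma 3.58.1 (voom, two-sided, Benjamini-Hochberg) in R 4.3.3. For the myoblast ratio of peak to remainder, 0.5 reads were added and limma tested a mean of 0. The plan named limma without saying how its prior variance should be set. Counts of calls under both settings were seen, a single prior variance was taken first, and the prior that depends on reads was then taken because simulated data showed more power. In that simulation of this ratio over 79929 rows, it recovered 43 of 100 log2 changes of 2 and 2 of 100 log2 changes of 1, and a single prior recovered 0 of each, with 0 false calls in either case. The simulated libraries differed only by sampling, so the 0 false calls do not carry over to the real libraries. The choice of prior was made after the results were known. Counting and plots used matplotlib 3.10.9, SciPy 1.17.1, pandas 2.3.3 and NumPy 2.4.6 under Python 3.11.15.

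Named regions had at least 100 reads over the 6 libraries, with at most 1 per host and per 100 kb. They were the 5 with the highest myotube density, the 5 least and 5 most lowered, the 5 largest and 5 smallest myoblast ratios, and the 3 hosts with the most MT peaks. Alternatives changed the scaling, floor, prior variance, overlap rule, remainder and read positions, added a replicate block, or left out each library. The groups' same-numbered libraries had correlations of deviations of 0.0538, -0.0196 and 0.0446, and were not treated as pairs. Genes and sequences were not given, because no genome of build mm9 was used.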

Additional observations from a re-analysis of the deposited data

How the results depend on the processing

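Scaled by total reads, each of the alternatives run on the densities kept myotubes below myoblasts. The log2 difference was -1.71 to -1.29 at shared peaks and -2.53 to -2.13 in host remainders, both smallest without MT replicate 2. Relative to sequence outside peaks, the main values were larger falls, at -2.03 and -2.85. Lower calls at shared peaks stayed within 1.5 times the 6375 in each alternative run on them. Restricting MT peaks to the upper 50% by width left 7717 shared peaks, 4104 lower remainders, 51 denser and 5 sparser calls in the myoblast ratio, and a difference between groups in log2 peak over remainder of 0.64. There 99.5% of tested remainders and 98.8% of all pieces were lower. Of shared peaks 0.823% were denser and 0.0806% sparser, and of central windows 0.0175% and 0.051%. Of shared peaks, 6 were higher without a floor, and 0 to 11 with each library left out (11 without MT replicate 2, 1 without MB replicate 3).

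The count of shared peaks denser than their remainder in myoblasts was the least stable value. Against 165 it was 387 with shifted positions (plus strand by 75 bp, minus strand by 29 bp, both inward), 328 with remainders of at least 500 bp, 55 with the mirror image as remainder and 1182 with 2 reads added. As shares of the shared peaks tested these were 3.43%, 3.88%, 1.16% and 10.5%, against 1.46%. Central windows in the same fits were denser in 0.352%, 0.245%, 0.0153% and 1.11% of cases, against 0.0379%, so they moved too. It was 0 with the remainder within 500 bp, 0 with a single prior variance (chosen after seeing the data) and 0 to 0 with each MB library left out. Sparser calls went from 10 to 0, 1, 17 and 5 with the remainder within 500 bp, the mirror image, 2 reads added and peaks wholly inside a host, and to 0 with a single prior variance and with each MB library left out. Central windows were sparser in 0.00437%, 0.255% and 0.235% of cases with the remainder within 500 bp, the mirror image and 2 reads added. In the main fit their share was 0.0991%. The cause of the changes was not tested.

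The pooled myoblast ratio of 0.17 (log2) stayed above 0 in each alternative run on it and was 0.21 with shifted positions, 0.23 for peaks wholly inside a host, 0.26 within 500 bp, 0.29 against the mirror image and 0.24 with remainders of at least 500 bp. The difference between groups of 0.79 became 0.61, 0.62 and 0.71 with shifted positions, the mirror image and remainders of at least 500 bp, and 1.29 with the density outside peaks taken off.

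With the replicate block, limma voom called 6251 shared peaks (93.3% of those tested) and 6809 remainders (99.6%) lower, against 98.4% of all pieces. The block was not taken as a pairing, since same-numbered libraries were hardly correlated.

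Of 180 values for 15 named peaks, 161 kept their direction and side of the threshold. The others were all at the 5 least lowered peaks, none of which was called. Scaled by reads outside peaks, the peaks on chromosomes 18, 10 and X had -0.10, -0.14 and -0.45, and those on chromosome 1 from 36530985 and from 17059943 had -0.38 and -0.46. The chromosome 1 pair had -0.16 and -0.039 with that scaling and without MT replicate 2, a choice made after seeing the data. With each library left out, the first of the pair had -0.077 to 0.297 (-0.077 without MB replicate 2, -0.013 without MT replicate 3). The second had -0.37 to 0.43 (-0.079 without MB replicate 2, -0.37 without MT replicate 3), and -0.0072 with limma-trend and -0.037 with shifted positions. The chromosome X peak had -0.62 to 0.90 (-0.25 without MB replicate 3, -0.15 without MT replicate 1, -0.62 without MT replicate 3), and -0.011 with limma-trend. Without MT replicate 2 the peaks on chromosomes 18 and X were called higher, at 0.89 and 0.90, but not with scaling outside peaks as well (0.44 each). Depth limited the single peaks, of which 6701 of 14055 passed the floor.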
